A study of Danio rerio with 8 samples.

Results

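Extracellular matrix genes were examined in kdrl-positive cells sorted from zebrafish embryos 28 hours after fertilization: the collagens, laminins and fibronectins, the nidogens and perlecan, SPARC, the thrombospondins and the lysyl oxidases. They were taken from the count table by gene symbol, and 99 of its 31901 genes carried such a symbol. Of these, 86 had enough counts to be tested, 12 had too few, and col28a2b was counted in no library. The 12 were COL8A1, both COL10A1 genes, 1 of 2 col19a1 genes (ENSDARG00000096073), col21a1, col28a1b, col6a4b, lama3, lamb3, LOX, loxl5a and nid2b. Total RNA without ribosomal RNA was sequenced from 4 samples of sf3b1 mutants and 4 of their siblings, all endothelial by label and sorted as kdrl-positive. The mutated gene encodes a subunit of the U2 snRNP, which recognises intron branch points, and the comparison asks which transcripts differ when it is mutated. The allele, the siblings' genotype and the number of embryos or clutches behind a sample are not in the labels, so p-values reflect sample-to-sample spread that may be technical.

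Endothelial cells sit on a basement membrane, a sheet in which a laminin network and a type IV collagen network are tied together by nidogens and the proteoglycan perlecan. Fibrillar collagens form the rope-like fibrils of the interstitial matrix and are best known from fibroblasts, cartilage, skin and, in fish embryos, the notochord and fin fold. Fibronectin is laid down early around forming vessels and the heart, where migrating cells attach to it through integrins. Collagens of every kind are hydroxylated, glycosylated and folded in the endoplasmic reticulum before they are exported, and lysyl oxidases crosslink them outside the cell.

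Library totals ran from 10035886 to 13277963 counts, and the matrix genes drew 0.742% to 1.16% of them. The transcript of sf3b1 itself (listed as SF3B1, ENSDARG00000056138) fell by 0.87 ± 0.166 on the log2 scale in mutants (adjusted p = 0.00168), with every mutant library below every sibling library. Of 27 endothelial marker genes tested, 5 were higher and 2 lower, which is 25.9% against 21.3% of all genes tested. Their summed level ran from 4614 to 8739 CPM in mutants and from 4633 to 7431 in siblings. The gene kdrl, for which the sorted cells are named, did not pass (log2 fold change 0.50 ± 0.241, adjusted p = 0.167). Neither did the junction gene cdh5 (-0.05 ± 0.238, adjusted p = 0.919), although kdrl passed as higher without mutant replicate 1 (0.68). On the second principal component (17.8% of the variance), mutant replicate 4 and sibling replicate 2 lay farthest from their own groups. CPM values are counts scaled to normalized library sizes, and a gene passed when its adjusted p in edgeR's quasi-likelihood test over all genes was under 0.05. Log2 fold changes are mutant over sibling, ± SE, with n = 4 libraries per group.

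All fibrillar collagen genes that passed were lower in the mutants, while 8 of 10 basement membrane genes that passed were higher. Over all 18289 genes tested, 21.3% passed, 9.92% higher and 11.4% lower, and the median log2 fold change was 0.00. Of 15 fibrillar collagen genes, all of them tested, 7 fell, none rose and 8 did not pass, and their median log2 fold change was -0.91. Of 25 basement membrane genes tested out of 28, 8 rose, 2 fell and 15 did not pass, with a median of -0.05 that changed sign with the scaling and with single libraries. Of all 86 matrix genes tested, 11 rose and 18 fell, which is 33.7%, and 57 did not pass. Mutant and sibling values did not overlap in 26.7% of all genes tested, and among the 86 matrix genes 11 lay wholly above the siblings and 17 wholly below. Fibrillar against basement membrane genes is a contrast between gene lists, and the list medians and counts are given as descriptions, without a test between them.

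**Figure D1:**
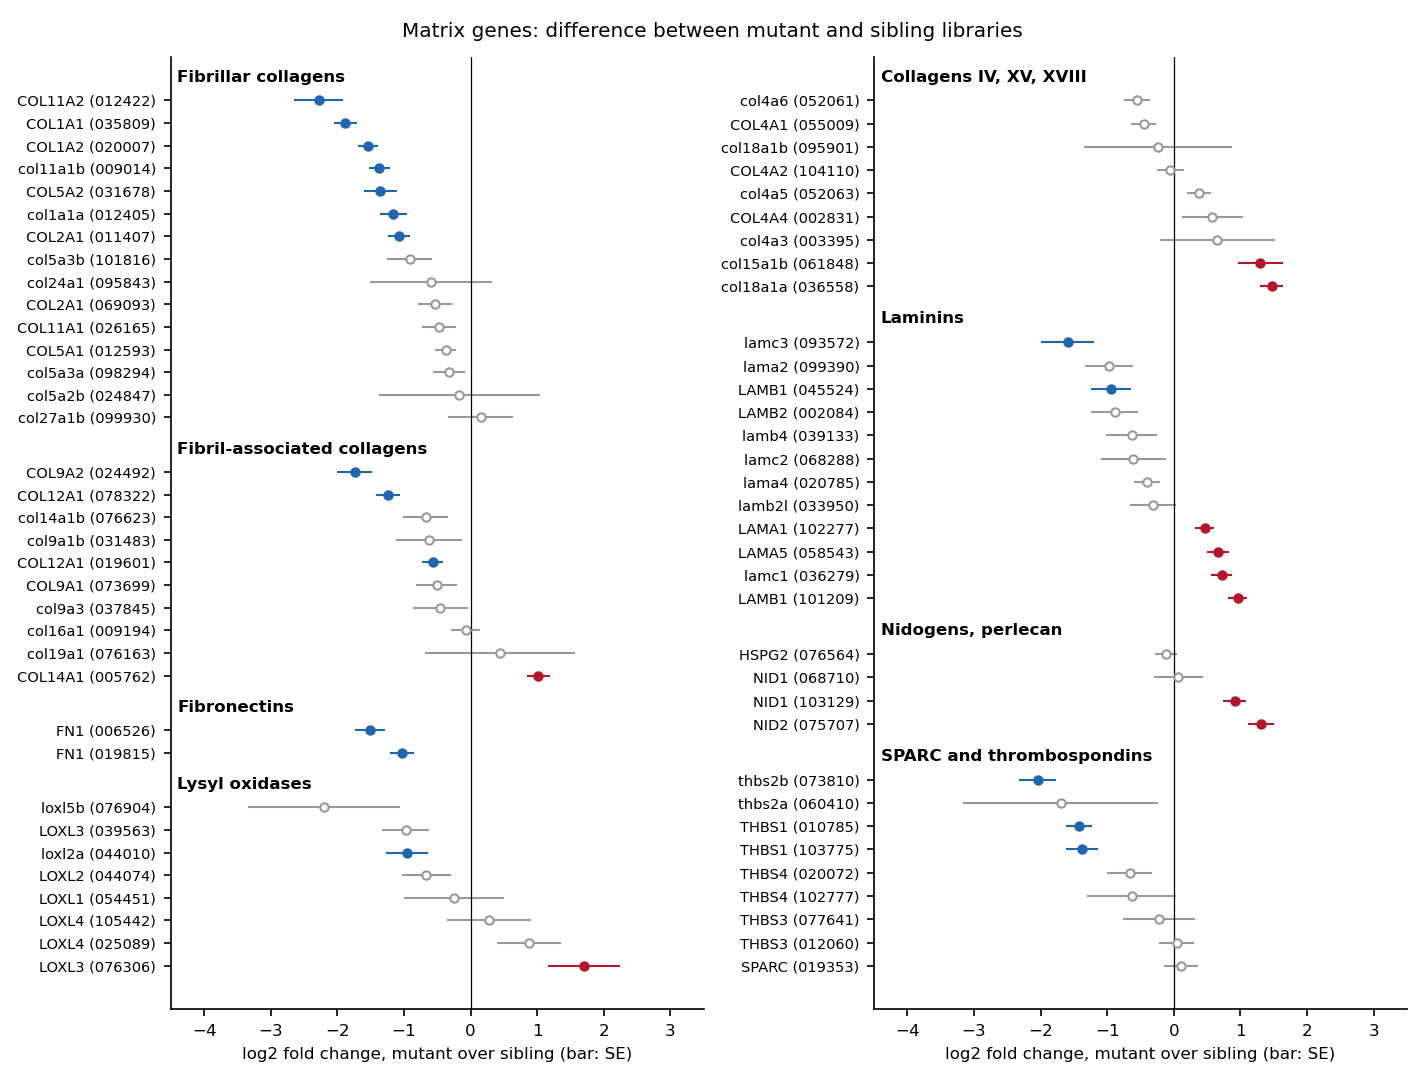
Log2 fold change of mutant over sibling (horizontal axis, bars ± SE) for the tested genes of 8 classes, each row labelled with its symbol and the last 6 digits of its Ensembl identifier. Filled blue points passed as lower, filled red points passed as higher and open grey points did not pass. Of 15 fibrillar collagens, 7 are blue and none is red, while of 25 basement membrane genes 8 are red and 2 are blue.

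The summed level of the fibrillar collagens was 1987, 1893, 1829 and 1343 CPM in mutant replicates 1 to 4, and 2934, 2829, 3911 and 4346 CPM in sibling replicates 1 to 4. Every mutant library was below every sibling library, and the mutant mean was 0.503 of the sibling mean. The summed level of the basement membrane genes ran the other way, with 5504, 5510, 5045 and 5915 CPM in mutants and 3542, 3053, 4184 and 4379 CPM in siblings. Here the mutant mean was 1.45 times the sibling mean, again without overlap. The 8 genes that rose carried this difference, and the other basement membrane genes together were not higher in mutants. Of the 25 basement membrane genes tested, 12 had estimates above 0 and 13 below. Within each library, the fibrillar sum was 0.361, 0.344, 0.363 and 0.227 of the basement membrane sum in mutants, and 0.828, 0.927, 0.935 and 0.992 of it in siblings. These sums weigh long and abundant transcripts most, and in bulk RNA fewer cells of a type and less RNA per cell cannot be told apart.

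**Figure D2:**
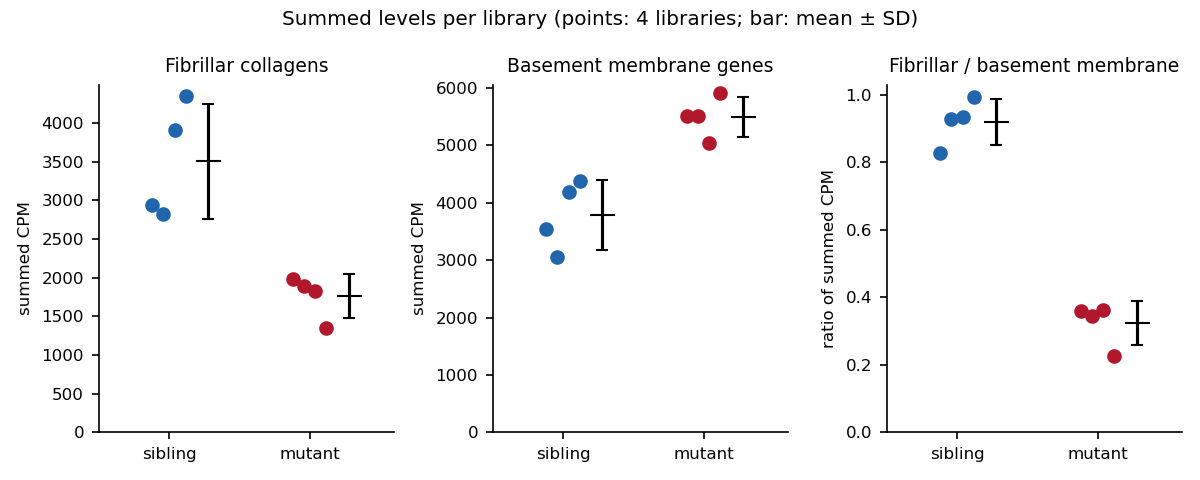
Summed CPM of the fibrillar collagens and of the basement membrane genes, and their ratio, in each library (points, 4 per group) with the mean ± SD (black). The mutant libraries lie below all siblings for fibrillar collagens (1343 to 1987 CPM) and above all siblings for basement membrane genes (5045 to 5915 CPM).

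Type I collagen, the main fibril former of skin, bone and tendon, fell at all of its genes. COL1A1 (ENSDARG00000035809) stood at 160.2, 151, 135 and 147 CPM in mutant replicates 1 to 4 and at 455, 439, 552 and 736 CPM in sibling replicates 1 to 4. The mutants lay close together and far below the lowest sibling, with a log2 fold change of -1.88 ± 0.171 (adjusted p = 4.92e-06). COL1A2 (ENSDARG00000020007), the partner chain, stood at 135, 129, 136 and 164 CPM in mutants and 375, 353, 414 and 503 CPM in siblings, a log2 fold change of -1.54 ± 0.151 (adjusted p = 9.68e-06). The other alpha-1 gene, col1a1a (ENSDARG00000012405), was at 244, 219.98, 206 and 155 CPM in mutants and at 371, 319.7, 538 and 615 CPM in siblings. Its groups did not overlap either, with a log2 fold change of -1.16 ± 0.206 (adjusted p = 0.00101).

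Chains that start or regulate fibrils gave mixed calls. Type XI collagen, which nucleates the fibrils of cartilage, fell at COL11A2 (ENSDARG00000012422), with 31.5, 30.9, 36.7 and 10.6 CPM in mutants and 79.9, 99.4, 200.2 and 152 CPM in siblings (-2.28 ± 0.369, adjusted p = 0.000800). Mutant replicate 4 was the lowest library, and each of the other 3 mutants was also below all siblings. It fell at col11a1b (ENSDARG00000009014) as well, with 79.8, 94.7, 93.97 and 71.8 CPM in mutants and 203, 192, 218 and 268 CPM in siblings (-1.37 ± 0.158). COL11A1 (ENSDARG00000026165) did not pass: its mutants were at 246, 221, 189 and 107 CPM and its siblings at 195, 196, 333 and 334 CPM, with overlap. Type V collagen nucleates type I fibrils. Its gene COL5A2 (ENSDARG00000031678) fell from 123 ± 38.8 to 48.02 ± 13.7 CPM (mean ± SD, n = 4, -1.36 ± 0.2498). COL5A1 (ENSDARG00000012593) was at 324, 365, 350.3 and 276 CPM in mutants and 366, 389, 393 and 555 CPM in siblings. These groups did not overlap, by a gap of under 1 CPM, and the test did not pass (log2 fold change -0.37 ± 0.158, unadjusted 95% interval from -0.71 to -0.04, adjusted p = 0.111).

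Type II collagen is the fibril former of cartilage and notochord, and 1 of its 2 genes passed. ENSDARG00000011407 (COL2A1) fell, with 117, 135, 90.99 and 109 CPM in mutants and 237, 184, 259 and 276 CPM in siblings (-1.08 ± 0.168, adjusted p = 0.000373). The other identifier with this symbol, ENSDARG00000069093, was at 526, 434, 484 and 216 CPM in mutants and 465, 465, 803 and 664 CPM in siblings and did not pass (-0.53 ± 0.254, adjusted p = 0.170). Mutant replicate 4 held its lowest value and the remaining mutants overlapped the siblings. Of 11 notochord and floor plate markers tested, 1 was lower (epyc, log2 fold change -2.65 ± 0.535) and none was higher. This is 9.09%, against 21.3% of all genes tested. The summed level was 162 to 210 CPM in mutants and 195 to 407 CPM in siblings. The notochord factor gene tbxta stood at 1.89 to 7.10 and 0.0954 to 13.9 CPM, with a single count of noto in all libraries. The other fibrillar genes that did not pass were col24a1, col27a1b, col5a2b, col5a3a and col5a3b, with log2 fold changes from -0.91 to 0.15.

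Collagens that ride on fibrils without forming them, the fibril-associated class, moved in both directions: of 10 tested out of 12, 3 fell, 1 rose and 6 did not pass. This is 40% passing, against 21.3% of all genes tested. COL9A2 (ENSDARG00000024492), of the type IX collagen that coats cartilage fibrils, fell from 48.2 ± 17.01 to 14.4 ± 2.03 CPM (-1.74 ± 0.266, adjusted p = 0.000320). Its partner chains col9a1b (-0.63 ± 0.494) and col9a3 (-0.45 ± 0.418) did not pass, and both had mutant replicate 4 as the lowest of the 8 libraries. COL12A1, found in tendon sheaths, fascia and fin folds, fell at ENSDARG00000078322, with 67.3, 90.2, 111 and 90.99 CPM in mutants and 217, 163, 221 and 245 CPM in siblings (-1.24 ± 0.178). At its second identifier, ENSDARG00000019601, it fell too (-0.57 ± 0.159, adjusted p = 0.0191), and this call did not survive the loss of mutant replicate 3 or of sibling replicate 3 or 4. COL14A1 (ENSDARG00000005762), a relative of COL12A1, was the one that rose. It stood at 264, 254, 163 and 252 CPM in mutants and 108, 95.7, 131 and 126 CPM in siblings, without overlap, and its log2 fold change was 1.02 ± 0.175 (adjusted p = 0.000800). The genes COL9A1, col14a1b, col16a1 and col19a1 (ENSDARG00000076163) did not pass, with log2 fold changes from -0.67 to 0.44.

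Both fibronectin genes fell. FN1 at ENSDARG00000006526 stood at 95.2, 127, 66.6 and 72.3 CPM in mutants and 175, 251, 316 and 289 CPM in siblings, a log2 fold change of -1.51 ± 0.223 (adjusted p = 0.000243). The second gene, ENSDARG00000019815, was at 166, 196, 174 and 203 CPM in mutants and 287, 335, 339 and 548 CPM in siblings, a log2 fold change of -1.03 ± 0.186 (adjusted p = 0.00115). No mutant library reached the lowest sibling at either gene, and the sum of both was 0.434 of the sibling mean.

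Among the matricellular genes, whose products bind matrix and signal to cells without building it, 3 of 9 fell and none rose. This is 33.3%, against 21.3% of all genes tested, where 11.4% were lower. Thrombospondin 1, an inhibitor of vessel growth and an activator of latent TGF-beta, fell at both of its genes. THBS1 at ENSDARG00000010785 was at 88.2, 81.7, 59.7 and 66.5 CPM in mutants and 157, 164, 209.7 and 267 CPM in siblings (-1.43 ± 0.194, adjusted p = 0.000128). At ENSDARG00000103775 the log2 fold change was -1.38 ± 0.244. The thrombospondin gene thbs2b (ENSDARG00000073810) fell from 56.4, 31.96, 43.4 and 44.99 CPM in siblings to 13.4, 12.7, 10.3 and 6.41 CPM in mutants (-2.05 ± 0.276, adjusted p = 0.000119). The groups of these 3 genes did not overlap, which was so for 26.7% of all genes tested. SPARC (ENSDARG00000019353), a collagen-binding glycoprotein, did not pass (0.11 ± 0.252, 95% interval from -0.43 to 0.65), and neither did the genes of THBS3 and THBS4 (-0.66 to 0.04) or thbs2a (-1.70).

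**Figure D3:**
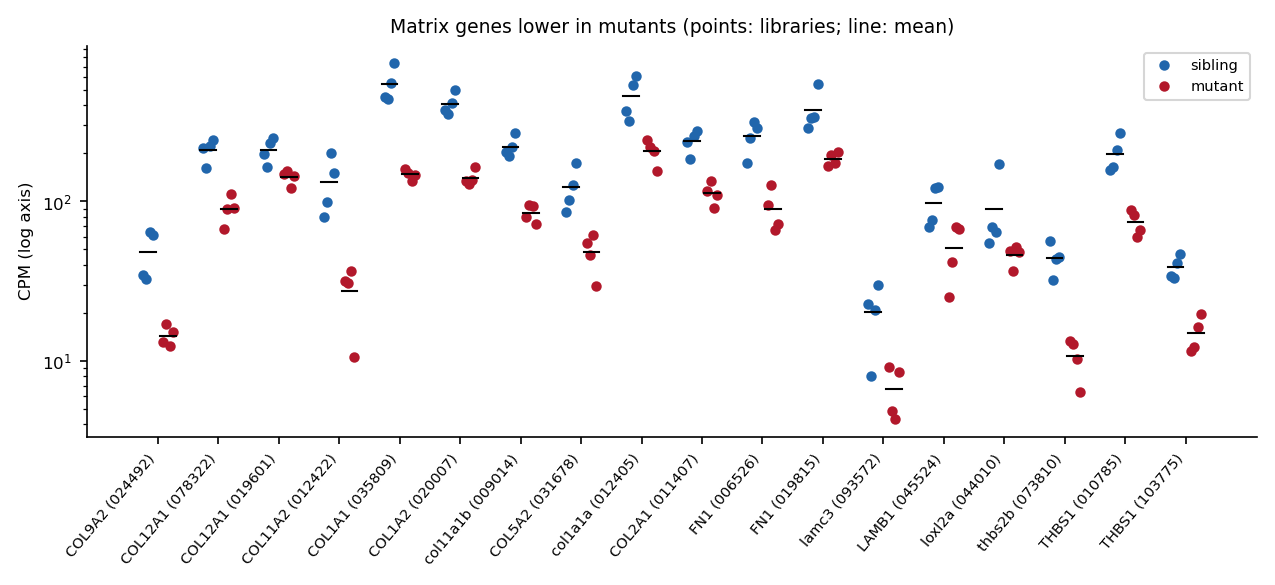
CPM (log axis) of the 18 matrix genes that fell, in each sibling (blue) and mutant (red) library, with the group mean as a line; labels carry the last 6 digits of the identifier. The groups overlap only at LAMB1 and lamc3, and sibling replicate 4 lies far above the other siblings at loxl2a.

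Of the lysyl oxidases, 1 of 8 tested fell and 1 rose, which is 25% and near the 21.3% of all genes tested. The gene loxl2a (ENSDARG00000044010) was at 49.0, 36.5, 51.8 and 48.0 CPM in mutants and 54.9, 69.3, 64.3 and 171 CPM in siblings (-0.96 ± 0.311, adjusted p = 0.0425). Sibling replicate 4 decided the size of that difference: without it the log2 fold change was -0.44 and did not pass, and the call was also lost on leaving out any one of the mutants. LOXL3 at ENSDARG00000076306 stood at 10.7, 8.23, 8.53 and 6.16 CPM in mutants and 1.402, 4.58, 1.06 and 3.21 CPM in siblings (1.71 ± 0.5402, adjusted p = 0.0350). Only 2 of the 8 libraries could be left out without losing this call, mutant replicate 4 and sibling replicate 2, and the values ran from 1.45 to 2.13. The other LOXL3 gene, ENSDARG00000039563, pointed down and did not pass (-0.97 ± 0.3497, adjusted p = 0.0621). It passed as lower with DESeq2 (-0.96, adjusted p = 0.0460), with no filter on low counts (-0.97), and without mutant replicate 4, sibling replicate 2 or both (-1.37 without both). LOXL2 (-0.66 ± 0.371) and LOXL4 (ENSDARG00000025089, 0.88 ± 0.479) did not pass, nor did LOXL1, the second LOXL4 gene and loxl5b. Of the genes with too few counts to test, loxl5a had 0.703 to 2.97 CPM in mutants and 0 to 0.326 CPM in siblings.

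Lower fibrillar collagen and fibronectin levels went with lower levels of several marker genes of other cells. Of all genes tested, 21.3% passed, 11.4% as lower and 9.92% as higher. Of 12 mural cell markers tested, 4 were lower and none higher, which is 33.3%. Their summed level was 434 to 523 CPM in mutants and 641 to 825 CPM in siblings. The pericyte receptor gene PDGFRB fell by 2.36 ± 0.287 and the proteoglycan gene CSPG4 fell by 2.36 ± 0.309 on the log2 scale. Of the 12, 8 did not pass. Among these, NOTCH3 had means of 328 CPM in mutants and 382 CPM in siblings, with overlap (-0.22 ± 0.152, adjusted p = 0.365). The estimate for CNN1 pointed up (2.04 ± 1.48), at means of 1.67 and 0.402 CPM. Meanwhile acta2 and RGS5 were under 2 CPM in every library and KCNJ8 was counted in none. Of 19 sclerotome and fibroblast markers tested, 2 were lower and 3 higher, which is 26.3% and near the share of all genes. Their sums were 139 to 211 CPM in mutants and 201 to 320 CPM in siblings, with overlap. The mesenchymal receptor gene PDGFRA (log2 fold change -2.68 ± 0.308) and PRRX1 (ENSDARG00000033971, -1.40 ± 0.369) were the lower ones, and both PAX1 genes and FBLN1 were the higher ones. The summed levels of blood and neural lists were lower too. Of 16 leukocyte markers, 11 fell and none rose, which is 68.8% (207 to 549 CPM against 1429 to 1788 CPM). Of 14 genes matched as erythroid, 9 fell and 1 rose, which is 71.4% (4941 to 6578 against 10600 to 20560 CPM). The one that rose was slc4a1ap (1.34 ± 0.183), a different gene that the symbol match took for the listed slc4a1a. It is part of these counts and sums. Of 23 neural markers, 9 fell and none rose, which is 39.1% (531 to 640 against 1224 to 1764 CPM). An MFAP4 gene of the leukocyte list and an HBE1 gene of the erythroid list were counted in no library. The part of these cells in the lower matrix transcripts was not tested. Sums of the epidermal, muscle, neural crest and heart lists overlapped between the groups. Of their tested markers, 1 of 17, 0 of 19, 2 of 14 and 2 of 13 were lower and 0, 3, 1 and 1 higher. In the same order, 5.88%, 15.8%, 21.4% and 23.1% of them passed. The epidermal sum was 4157 to 11420 CPM in mutants and 4428 to 11840 CPM in siblings. Its means were 8290 and 8180 CPM, beside means of 6898 and 6107 CPM for the endothelial list. The keratin gene krt4 alone ran from 692 to 5824 CPM in mutants and from 906 to 5333 CPM in siblings.

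Laminins are trimers of an alpha, a beta and a gamma chain, and at least 1 gene for each kind of chain rose. Of 12 laminin genes tested out of 14, 4 rose, 2 fell and 6 did not pass. This is 50% passing, against 21.3% of all genes tested. Of the 12 estimates 8 were below 0, and the median log2 fold change was -0.51. The gamma chain gene lamc1 (ENSDARG00000036279), whose product is in most laminins, stood at 1177, 1204, 1159 and 1224 CPM in mutants and 637, 524, 819 and 911 CPM in siblings. The mutants lay within a narrow band above every sibling (0.72 ± 0.159, adjusted p = 0.00470). LAMB1 at ENSDARG00000101209, a beta chain, was at 666, 625, 592 and 679 CPM in mutants and 285, 278, 353 and 400.4 CPM in siblings (0.96 ± 0.144, adjusted p = 0.000282). Of the alpha chains, LAMA5 (ENSDARG00000058543), a chain of mature vessel basement membranes in mice, had 513, 514, 346 and 564 CPM in mutants and 329.7, 243, 338 and 311 CPM in siblings (0.67 ± 0.167, adjusted p = 0.0102). LAMA1 (ENSDARG00000102277), the main alpha chain of early embryos, had 501, 576, 466 and 564 CPM in mutants and 339.8, 331, 461 and 392 CPM in siblings (0.47 ± 0.143, adjusted p = 0.0303). For LAMA5 and LAMA1 too, the lowest mutant lay above the highest sibling, by a small margin. LAMA1 kept its call only when mutant replicate 3 or sibling replicate 3 was the library left out, and both calls were lost without mutant replicate 4 and sibling replicate 2 together (0.47 for LAMA5 and 0.36 for LAMA1).

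Other laminin chains pointed the other way. The second LAMB1 gene, ENSDARG00000045524, was at 25.2, 41.6, 69.5 and 67.2 CPM in mutants and 68.8, 76.4, 121 and 123 CPM in siblings (-0.94 ± 0.2999, adjusted p = 0.0393). Its groups touched, and the call was lost without mutant replicate 1, mutant replicate 2, sibling replicate 3 or sibling replicate 4, with values from -1.13 to -0.71. Counts at ENSDARG00000101209 were 26.4, 15.04, 8.52 and 10.1 times those at ENSDARG00000045524 in mutants and 4.14, 3.64, 2.91 and 3.26 times in siblings, where the length of the genes is not taken into account. The gamma chain gene lamc3 (ENSDARG00000093572) fell from 20.3 ± 9.04 to 6.70 ± 2.46 CPM (-1.60 ± 0.403, adjusted p = 0.0106), with sibling replicate 2 inside the mutant range. The alpha chain gene lama4 (ENSDARG00000020785), known as an endothelial chain in mammals, was at 172, 218, 269 and 243 CPM in mutants and 257, 221, 307 and 407 CPM in siblings and did not pass (-0.40 ± 0.193, 95% interval from -0.81 to 0.01). LAMB2 (-0.89 ± 0.354, adjusted p = 0.0902) and lamb2l (-0.31 ± 0.351) did not pass. LAMB2 passed as lower without sibling replicate 2 (-1.08) and with no filter on low counts (-0.88), and without mutant replicate 4 and sibling replicate 2 together both passed as lower (-0.82 for LAMB2 and -0.99 for lamb2l). In the fit of all libraries, all 6 laminin genes that were tested and did not pass had a log2 fold change below 0. The beta chain gene lamb3 was counted in no mutant and had up to 2.77 CPM in siblings, too few counts to test.

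Nidogens tie the laminin sheet to type IV collagen, and the more strongly counted gene of each kind rose. NID2 (ENSDARG00000075707) stood at 264, 218, 205 and 219 CPM in mutants and 100.05, 57.1, 96.9 and 112 CPM in siblings, a log2 fold change of 1.31 ± 0.192 (adjusted p = 0.000238). NID1 at ENSDARG00000103129 was at 479, 517, 559 and 692 CPM in mutants and 285, 216, 323 and 369.5 CPM in siblings, a log2 fold change of 0.91 ± 0.173 (adjusted p = 0.00165). Both were higher in each mutant than in any sibling. The second NID1 gene, ENSDARG00000068710, had 5.15 to 22.6 CPM over all libraries and did not pass (0.07 ± 0.368), and nid2b had too few counts to be tested. Perlecan, HSPG2 (ENSDARG00000076564), was at 222, 270.2, 335 and 298 CPM in mutants and 253, 275, 327 and 368 CPM in siblings, with a log2 fold change of -0.12 ± 0.163 and a 95% interval from -0.47 to 0.23.

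Of the 9 basement membrane collagen genes, 1 of type XV and 1 of type XVIII rose, and no type IV gene passed. This is 22.2%, near the 21.3% of all genes tested. Type XVIII collagen is the parent of the angiogenesis inhibitor endostatin. Its gene col18a1a (ENSDARG00000036558) had 756, 621, 422 and 602 CPM in mutants and 248, 192, 223 and 202 CPM in siblings, a log2 fold change of 1.47 ± 0.172 (adjusted p = 4.00e-05). Its paralogue col18a1b had 0 to 7.48 CPM and did not pass (-0.24 ± 1.11). The type XV gene col15a1b (ENSDARG00000061848) had 98.01, 82.7, 56.6 and 78.9 CPM in mutants and 39.8, 10.97, 45.9 and 31.7 CPM in siblings (1.30 ± 0.3397, adjusted p = 0.0146). For both genes that rose, mutant replicate 3 was the lowest mutant and still above all siblings. COL4A1 and COL4A2, whose chains form the common type IV trimer, did not pass. COL4A1 (ENSDARG00000055009) was at 93.9, 112, 144 and 159 CPM in mutants and 128, 193, 186 and 186 CPM in siblings (-0.45 ± 0.188, 95% interval from -0.85 to -0.05, adjusted p = 0.108). COL4A2 (ENSDARG00000104110) was at 57.3, 77.3, 111 and 108 CPM in mutants and 82.4, 95.2, 94.5 and 93.7 CPM in siblings (-0.05 ± 0.1998, 95% interval from -0.48 to 0.37). In both genes mutant replicates 1 and 2 were lower than mutant replicates 3 and 4. The paired genes col4a5 (0.38 ± 0.183, adjusted p = 0.169) and col4a6 (-0.55 ± 0.194, adjusted p = 0.0575) had estimates of opposite sign, and neither passed. With all libraries, col4a6 passed as lower with DESeq2 (-0.54, adjusted p = 0.0386) and with no filter on low counts (-0.54, adjusted p = 0.0352). It also passed without mutant replicate 1, without sibling replicate 2, and without mutant replicate 4 and sibling replicate 2 together (-0.66, -0.69 and -0.61), and col4a5 passed as higher without mutant replicate 3 (0.53). The remaining type IV genes, col4a3 and COL4A4, stayed below 13 CPM and did not pass (0.65 and 0.58).

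**Figure D4:**
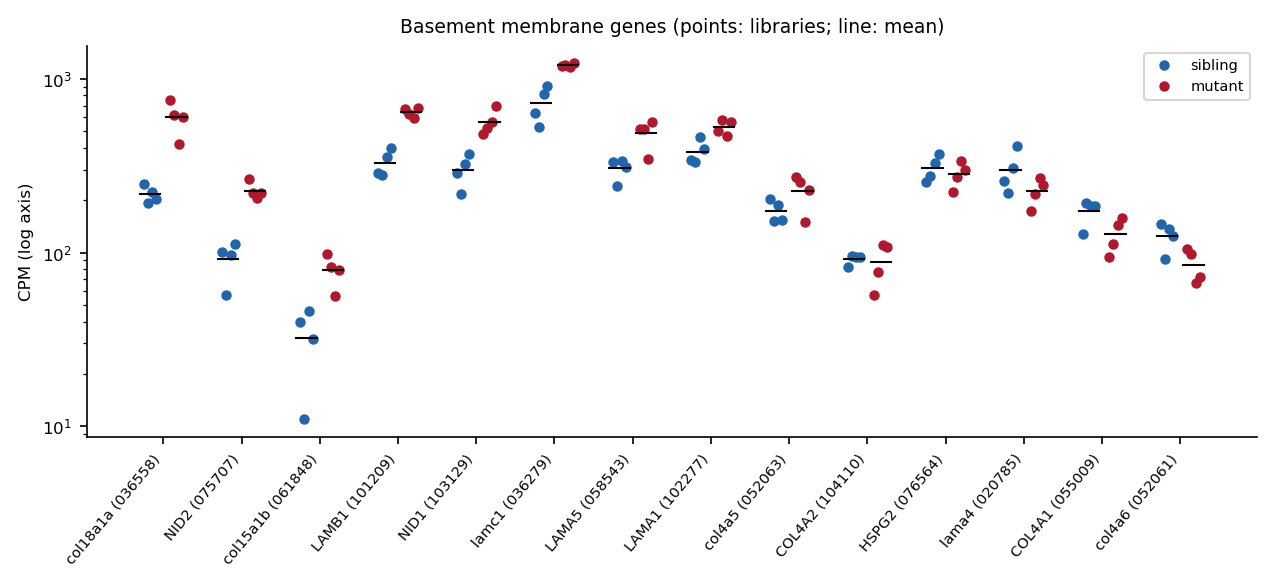
CPM (log axis) of the 8 basement membrane genes that rose (left) and 6 that did not pass (right, from col4a5 on), in each sibling (blue) and mutant (red) library, with the group mean as a line. In the 8 genes on the left no mutant library overlaps a sibling library.

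Other collagens gave few calls. The type VII gene col7a1l (ENSDARG00000069692), of the anchoring fibrils that hold epithelium to its underlying tissue, rose from 18.8 ± 2.29 to 33.6 ± 7.03 CPM (0.83 ± 0.229, adjusted p = 0.0173), a call lost without mutant replicate 1 or sibling replicate 1. Its relative col7a1 (0.30 ± 0.294) and a second col7a1l gene (0.75 ± 1.16) did not pass. All 6 tested genes of the type VI and XXVIII collagens, which form beaded filaments, had estimates below 0 without passing (-1.29 to -0.07). The weakest, col28a1a (-0.07 ± 1.45), had means of 0.826 CPM in mutants and 0.862 CPM in siblings and no settled sign. When a single library was left out, 2 of the 6 passed as lower. These were col6a4a without sibling replicate 2 (-1.57) and col28a2a without mutant replicate 4 (-0.83). The membrane-spanning collagens of types XVII and XXIII, 4 genes, all had estimates below 0 and none passed. For col17a1a (-0.26 ± 1.35) and col23a1b (-0.14 ± 1.41), group means were 1.14 to 1.43 CPM. Their SE far exceeded the estimate, so the sign is not settled. The gene col23a1a passed as lower without mutant replicate 3 (-2.38 against -1.50 with all libraries). COL8A2 (0.01 ± 0.301) and col8a1a (0.30 ± 0.491), of the type VIII collagen of vessel and corneal matrix, did not pass. The symbol rule also caught 2 LOXHD1 genes, whose product is no lysyl oxidase, and neither passed (-0.44 ± 1.496 and 1.48 ± 1.48).

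Genes that fold and modify collagen were among those that rose. Of 27 genes of collagen folding, modification and export tested, 11 rose, 1 fell and 15 did not pass, so that 44.4% passed against 21.3% of all genes, with a median log2 fold change of 0.63. SERPINH1, the collagen chaperone known as HSP47 and a heat shock gene, rose at both identifiers. At ENSDARG00000019949 it stood at 875, 858, 550.4 and 845 CPM in mutants and 130.3, 87.1, 175 and 66.1 CPM in siblings (2.77 ± 0.275, adjusted p = 2.18e-05), and at ENSDARG00000075954 the log2 fold change was 2.17 ± 0.214. COLGALT1 (ENSDARG00000058270), which adds galactose to collagen hydroxylysines, rose from 114, 116, 109 and 115 CPM in siblings to 276, 247, 184 and 217 CPM in mutants (1.03 ± 0.150, adjusted p = 0.000223). The other risers are named after their values were seen: the prolyl hydroxylase subunits P4HA2 (1.49 ± 0.249) and P4HB (0.71 ± 0.156), the lysyl hydroxylase PLOD1 (1.48 ± 0.357), CRTAP (1.35 ± 0.257) and P3H1 (1.24 ± 0.262) of the prolyl 3-hydroxylation complex, P3H3 (1.58 ± 0.329), the isomerase FKBP10 (ENSDARG00000045129, 1.14 ± 0.231) and the second COLGALT1 gene (1.56 ± 0.388). In the same complex, PPIB did not pass (0.29 ± 0.228). Relatives of the risers that did not pass were PLOD2 (0.21 ± 0.399), PLOD3 (0.14 ± 0.192), P3H2 (0.13 ± 0.222) and p3h4 (0.55 ± 0.365). The second FKBP10 gene, ENSDARG00000099183, did not pass either (0.63 ± 0.483). The single gene that fell was mia3 (-0.58 ± 0.1697), whose product loads bulky collagens into transport carriers. The coat genes SEC24D (-0.19 ± 0.177) and sec23a (0.11 ± 0.190), which act in the same export step, did not pass. P4HA1, a further prolyl hydroxylase subunit, spread over 15.99 to 104 CPM among the siblings alone and did not pass.

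**Figure D5:**
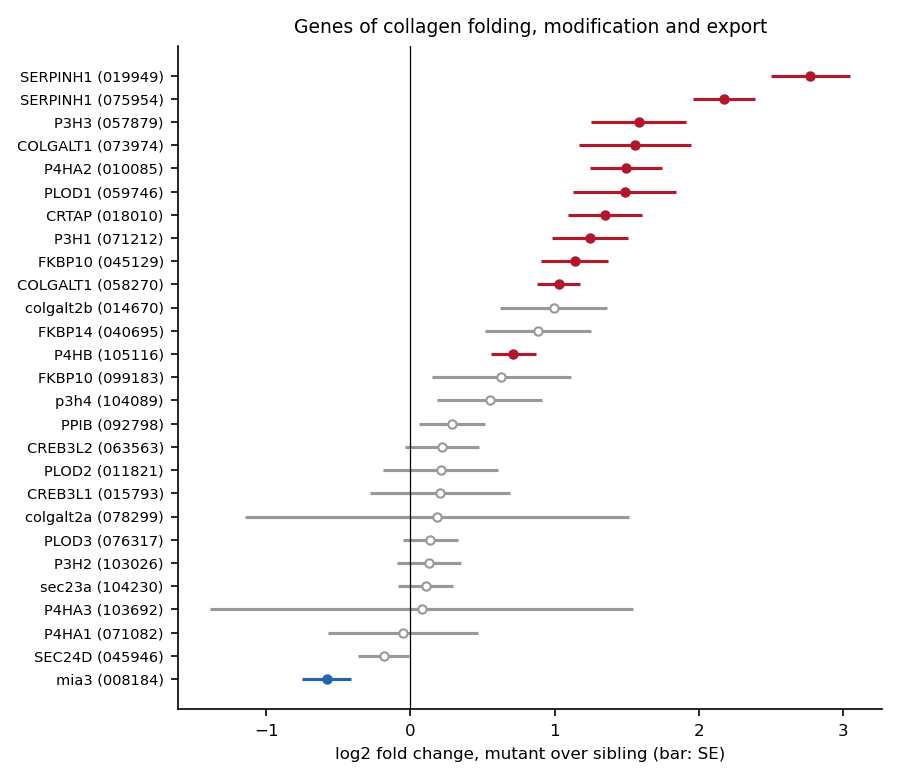
Log2 fold change of mutant over sibling (horizontal axis, bars ± SE) for the 27 tested genes of collagen folding, modification and export, labelled with the last 6 digits of the identifier. Filled red points rose (11), the filled blue point fell (mia3) and open grey points did not pass.

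Of 14 tested genes of procollagen trimming, 1 rose and 2 fell, which is 21.4% and close to the 21.3% of all genes. TLL1 (ENSDARG00000037429), a protease of the BMP1 family, stood at 136, 246, 318 and 252 CPM in mutants and 57.7, 49.7, 77.3 and 46.03 CPM in siblings (2.04 ± 0.2402, adjusted p = 4.33e-05). BMP1 itself fell at ENSDARG00000028071 (-1.25 ± 0.239, adjusted p = 0.00170), and the convertase gene PCSK5 fell by 1.27 ± 0.305.

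Among matrix proteases and their inhibitors, 6 of 35 tested rose and 10 fell, which is 45.7% against 21.3% of all genes tested. The gelatinase gene MMP2 (ENSDARG00000017676) was at 212, 244, 189 and 214 CPM in mutants and 42.9, 23.7, 55.2 and 48.6 CPM in siblings (2.33 ± 0.223, adjusted p = 7.79e-06). TIMP2 (ENSDARG00000075261), an inhibitor that also takes part in MMP2 activation, went the other way, with 38.8, 46.04, 53.8 and 77.1 CPM in mutants and 456, 332, 457 and 254 CPM in siblings (-2.80 ± 0.2397, adjusted p = 3.27e-06). MMP9 (ENSDARG00000042816), the gelatinase of neutrophils and macrophages, fell by 2.26 ± 0.2596, beside the lower leukocyte markers given above, whose part in it was not tested. MMP14, which activates MMP2, was also among the genes that rose (ENSDARG00000008388, 0.48 ± 0.157, adjusted p = 0.0403) and was named after its values were seen. Its groups overlapped, and the second MMP14 gene, ENSDARG00000002235, did not pass (0.07 ± 0.283, adjusted p = 0.908).

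Of 15 matrix receptors outside the integrins that were tested, 1 rose and 3 fell, which is 26.7% and near the 21.3% of all genes tested. The collagen receptor kinase gene DDR1 (ENSDARG00000078523) fell from 268, 315, 239 and 187 CPM in siblings to 40.2, 43.7, 45.9 and 36.5 CPM in mutants (-2.60 ± 0.179, adjusted p = 3.64e-07). ANTXR2, a receptor for type IV collagen and laminin, fell (log2 fold change -1.50 ± 0.271) and bcam, a receptor for laminins with the LAMA5 chain, rose by 0.72 ± 0.168. The laminin receptor gene DAG1, named after its values were seen, was the third that fell (-0.63 ± 0.1604). Of 54 further matrix genes tested, 9 rose and 5 fell, which is 25.9% and also near the 21.3% of all genes tested. The collagen-binding proteoglycan gene FMOD (ENSDARG00000044895) fell by 2.36 ± 0.3701, and emilin1b (1.44 ± 0.259), of elastic fibres, and HAPLN1 (ENSDARG00000068516, 1.55 ± 0.281), which fixes proteoglycans to hyaluronan, rose.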

How the data were processed

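Per the labels' protocols, total RNA of the sorted kdrl-positive cells was cleared of ribosomal RNA (RiboGone) before a stranded SMARTer library preparation. Per the submitters' processing notes, Trim Galore, STAR 2.4.2a, Picard, Cufflinks 2.2.1 and the build GRCz10 were used. How reads were counted, on which strand and against which annotation is not stated there. The deposited values are raw counts, one row per Ensembl gene, and show no sign of normalization. RNA depleted of ribosomal RNA keeps unspliced transcripts, which such counts do not tell apart. Symbols came from a table of Ensembl names. Those in capitals follow the human gene. In all, 14 symbols were shared by 28 of the matrix genes, all in capitals except col7a1l and col19a1. Reads of near-identical paralogues may be split. No sequences or positions are given.

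Mutants and siblings were compared over all genes with edgeR 4.0.16 (TMM, filterByExpr with a smallest count of 10 and total of 15, glmQLFit with robust=TRUE, glmQLFTest) in R 4.3.3, with Benjamini-Hochberg adjustment. The SE is the log2 fold change divided by the root of F, and 95% intervals use the t quantile of the fit. The procedure was tested on simulated counts. The matrix genes, their classes, the 5 pathway lists and the 11 marker lists were chosen with earlier results of these data known, and some matrix genes are in both kinds of list. The rule for named genes took all matrix genes that passed, up to 3 others per class by mean CPM, up to 3 that passed per pathway list, sf3b1, kdrl and cdh5. Other genes were named after their values were seen. Alternatives were RLE, upper-quartile and total-count scaling, 2 other filters, DESeq2 1.42.0, a replicate block and left-out libraries.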

Additional observations from a re-analysis of the deposited data

Results flagged for a closer look

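In 9 of 158 groups of 4 libraries looked at, 1 library lay far from the other 3, judged by its gap to the nearest library as a share of the group's range (Dixon's test at the 95% level). Chance flags about 1 group in 20. At COL14A1, mutant replicate 3 was lowest at 162.5 CPM, with the next mutant at 251.8 CPM. At loxl2a, sibling replicate 4 was highest at 170.7 CPM, with the next sibling at 69.3 CPM. At COL4A1, sibling replicate 1 was lowest at 128.2 CPM, with the next at 185.9 CPM. For SPARC, mutant replicate 2 was highest at 121.7 CPM, against 99.8 CPM. For COL5A1, sibling replicate 4 was highest at 554.6 CPM, against 393.5 CPM. The 2 LOXHD1 genes had mutant replicate 3 as the highest at 3.55 CPM (ENSDARG00000074638) and as the lowest at 0 CPM (ENSDARG00000094738). Among genes of collagen making and turnover, mutant replicate 3 was lowest at SERPINH1 (ENSDARG00000019949) with 550.4 CPM, against 844.8 CPM, and mutant replicate 2 was highest at MMP9 with 32.1 CPM, against 20.5 CPM.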

How the results depend on the processing

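Over 16 alternatives, the count of matrix genes that rose was 8 to 11 and of those that fell 15 to 26, each within 1.5 times the reported 11 and 18. The fibrillar median log2 fold change was -1.18 to -0.75. The basement membrane median ran from -0.21 to 0.20 and so has no settled sign. Of 29 matrix genes that passed, 23 did so whichever library was left out, and 6 lost the call without 1 or more libraries, as given beside them. Of the matrix genes that had not passed and were named by rule, 7 passed without 1 library or another. They were col23a1a, col28a2a, col4a5, col4a6, col6a4a, LAMB2 and LOXL3 (ENSDARG00000039563). No gene named by rule reversed with a call, and the other named genes were not followed singly through the alternatives. Over all genes tested, deviations of same-numbered mutants and siblings correlated at -0.028 to 0.0915, and those of differently numbered ones at -0.0971 to 0.107. These correlations span all genes together and cannot decide whether libraries of the same number were paired. With a replicate block, 10 matrix genes rose and 21 fell, the LOXL3 gene that had risen no longer passed (1.90), COL4A1 passed as lower (-0.46) and kdrl passed as higher (0.47, adjusted p = 0.0172). DESeq2 called 11 higher and 21 lower. Leaving out mutant replicate 4 and sibling replicate 2 together gave 9 higher and 26 lower. LAMB1 (ENSDARG00000045524) did not pass with upper-quartile scaling (-0.87), total counts (-0.93) or no filter (-0.93), and loxl2a did not pass with upper-quartile scaling (-0.88) or no filter (-0.94). Depth limits the weakly counted genes: the median SE was 0.712 for the 29 tested matrix genes with a mean under 10 CPM, of which 1 passed, and 0.241 for the other 57, of which 28 passed.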
